A study of Rattus norvegicus and Mus musculus with 3 samples.

Results

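Hippocampal transcript levels of 1 wild-type mouse library were set beside those of 1 Sham rat library, gene symbol by gene symbol. The genes compared were the symbols listed in both species' tables, joined ignoring upper and lower case, whose mean over the mouse and Sham libraries reached 1 unit. Of 48901 symbols listed in either species, 16251 were listed in both, and 11436 of these passed the minimum. The mouse carried the genotype label WT within the 3xTg-AD model, a mouse line used for Alzheimer's disease, and was 6 months old. The Sham rat was also labelled WT and was 3 to 4 months old. Another library, from a 2VO rat of the same age range and genotype label, served only as a second rat reference. The name 2VO commonly stands for tying off the common carotid artery on both sides, which models vascular dementia, and Sham for the operation without that step. Total RNA of whole hippocampus was used in each library, with 1 microgram put into the TruSeq RNA kit. Strain, sex, the time since surgery and any pooling of animals are not stated in the labels. Species, age, surgery and library differ together between the mouse and the Sham rat, so they cannot be told apart.

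Mouse and rat hippocampus share the same layout. Pyramidal neurons of the CA fields and granule cells of the dentate gyrus signal with glutamate, scattered interneurons signal with GABA, and astrocytes, oligodendrocytes and microglia support them. Oligodendrocytes wrap axons in myelin and are densest in the fibre tracts that run along the hippocampus. A join on gene symbols pairs genes by name, not by sequence, so each pair is only as good as the 2 annotations that named it.

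The deposited values are an expression signal whose unit is not stated. Depth is therefore unknown, a gene at 0 is described only as listed at 0, and single-gene levels are set between libraries for the same gene, while ranks and sums over genes describe each library on that same scale. Ratios were taken as log2(value + 1 unit), which understates the difference for low genes. With 1 library a side there is no test and no check by replicates, and each comparison describes the libraries alone. The compared genes held 92.9% of the summed values of the mouse, 91.3% of Sham and 91.3% of 2VO. Just outside the minimum lay Scnn1a, at 1.88 units in the mouse and 0.117 in Sham, and just inside lay Mcm5, at 1.21 and 0.794.

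The libraries stood apart in sex-linked transcripts, and sex is not stated for any of them. Eif2s3y, a Y-linked translation initiation factor gene, was listed at 0 in the mouse and was 25.3 units in Sham and 23.9 in 2VO. Kdm5d, a Y-linked histone demethylase gene, was listed at 0 in the mouse, with 6.42 in Sham and 6.14 in 2VO. The mouse table listed Xist, the RNA of X-chromosome inactivation, at 58.4 units, and the rat tables used here list no gene of that name. Ddx3y, a Y-linked RNA helicase gene, was listed at 0 in the mouse and was near 0 in the rats too, at 0.0734 and 0.0428. The rats also had a gene named Ddx3, at 13.5 in Sham and 13.2 in 2VO, and the mouse listed no gene of that name. Among X-linked partners of Y genes, Kdm6a was 6.34 in the mouse, 1.03 in the Sham rat and 1.25 in the 2VO rat. Ddx3x was 70.7, 38.3 and 44.0 in the same order, Kdm5c was 9.05, 8.67 and 8.17, and Usp9x was 19.5, 21.2 and 24.5, so only some of these stood higher in the mouse. Over the 379 X-linked genes the median log2 ratio of mouse to Sham was 0.16, and over 11012 autosomal coding genes it was −0.13. The part of sex in any difference below was not tested, and sex and species cannot be told apart here.

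Defining hippocampal markers were present in every library. Prox1, the transcription factor of dentate granule cells, was 17.8 units in the mouse, 17.2 in the Sham rat and 14.8 in the 2VO rat. Neurod6, a transcription factor of pyramidal neurons, was 65.8, 65.3 and 75. The median pyramidal and CA gene ranked at the 81.8th percentile of the compared genes in the mouse, the 83.1st in Sham and the 79.0th in 2VO. Of 29 markers of neighbouring regions such as striatum, thalamus, hypothalamus and brainstem, 12 passed the minimum. Among those that did not, Slc6a4, the serotonin transporter gene, was 0.0207, 0.00678 and 0.0369 units, and Pmch, a hypothalamic peptide gene, was 0.137, 0.161 and 0.0425. Ppp1r1b, a signalling protein gene abundant in striatum, was 16.4 in the mouse, 51.7 in the Sham rat and 49.0 in the 2VO rat. Hcrt, the orexin gene of the hypothalamus, was 0.109, 1.53 and 1.68. How much of neighbouring tissue each dissection held was not tested.

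The mouse and Sham libraries lay much further apart than the 2 rats did. The log2 ratio of mouse to Sham had a median of −0.12 and an SD over genes of 0.82, with 95% of genes between −1.80 and 1.47. The median gene differed 1.37-fold in either direction, and 6920 genes, 60.5%, lay within 1.5-fold. At least 2-fold apart were 2044 genes (17.9%): 748 were higher in the mouse (6.54%) and 1296 lower (11.3%). At least 4-fold higher were 108 genes (0.944%) and lower 199 (1.74%), and at 8-fold these were 22 (0.192%) and 45 (0.393%). Against 2VO, which shares the mouse library with the first comparison, 610 genes were at least 2-fold higher in the mouse (5.33%) and 1263 lower (11%). Between the rats the SD was 0.22, and 20 genes were 2-fold higher in 2VO (0.175%) and 20 lower (0.175%). That rat gap also contains the difference between 2VO and Sham, so it is not a spread between like animals. At least 2-fold from both rats at once, in the same direction, were 551 genes higher and 1068 genes lower in the mouse.

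**Figure D1:**
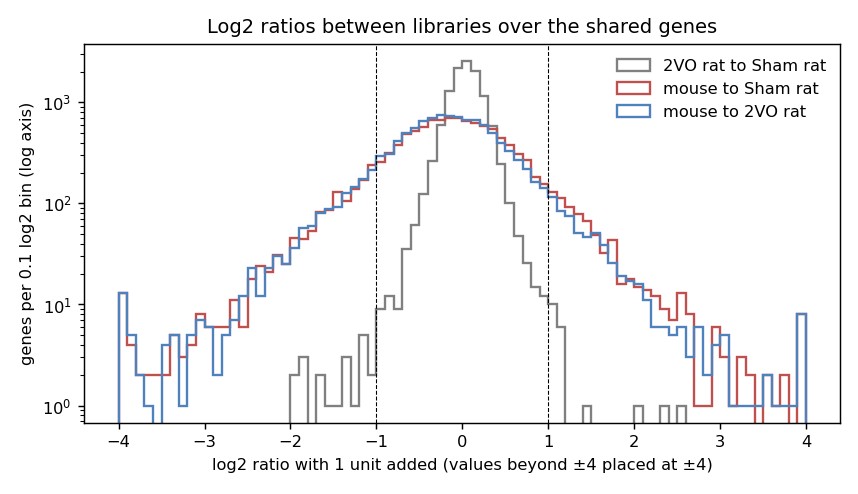
Log2 ratios with 1 unit added for the 11436 compared genes, as numbers of genes per bin on a log axis, for mouse to Sham, mouse to 2VO and 2VO to Sham; dashed lines mark 2-fold. The 2VO to Sham outline, with an SD of 0.22, is far narrower than the mouse outlines, with an SD of 0.82 against Sham.

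The excess of lower over higher genes depended on how the libraries were scaled. As deposited, 36.6% of the genes at least 2-fold apart were higher in the mouse. That share was 49.1% after scaling to equal upper quartiles, 47.1% after scaling by the median of ratios and 56.0% after scaling to equal sums over the compared genes. The median of all genes then stood at 0.02, −0.00 and 0.10 in place of −0.12. Group medians below are therefore read against −0.12, and a group median whose sign turned under a scaling is named as such. Levels kept much of their order across genes, with a Spearman's rho of 0.866 between mouse and Sham and 0.990 between the rats, which describes genes within these libraries and carries no p. Of the 20 genes highest in the mouse 14 were also among the 20 highest in Sham, and of the 500 highest 386 were shared. The rats shared 17 of 20 and 464 of 500.

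The genes at the top of each library were mostly shared, and 6 of the 20 highest in Sham were not among the 20 highest in the mouse, with Actb, Zwint, Gfap and Gapdh among these 6. Fth1, the iron-storing ferritin heavy chain, ranked 1 in the mouse at 1313 units and 3 in Sham at 1537. Eef1a1, a translation elongation factor, was 1051 units in the mouse, 1027 in the Sham rat and 1010 in the 2VO rat, so it hardly differed. Mbp, the myelin basic protein, ranked 11 in the mouse, 2 in the Sham rat and 1 in the 2VO rat. Gfap, the intermediate filament of astrocytes, ranked 346 in the mouse, 17 in the Sham rat and 71 in the 2VO rat. Zwint, a kinetochore-associated protein gene also abundant in neurons, ranked 49, 8 and 7 with 336, 1118 and 1078 units. Actb, the cytoplasmic actin, ranked 38, 11 and 12. Gapdh, a glycolytic enzyme, ranked 7166 in the mouse against 9 and 5 in the rats.

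**Figure D2:**
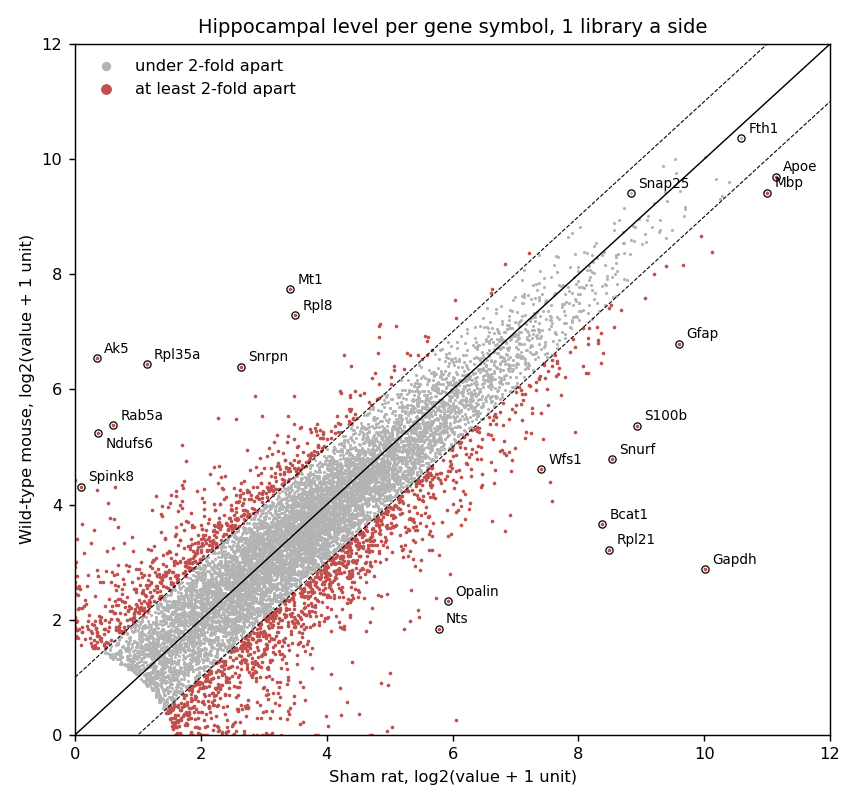
Level of each of the 11436 compared genes in the wild-type mouse (vertical) and the Sham rat (horizontal), both as log2(value + 1 unit); the solid line marks equality and dashed lines 2-fold. Grey genes lie under 2-fold apart and red genes at least 2-fold, with Gapdh at 6.36 against 1031 units far below the line and Ak5 at 91.8 against 0.270 far above it.

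The lowest ratio among the named genes was that of Gapdh, which every cell uses. Gapdh was 6.36 units in the mouse, 1031 in the Sham rat and 1219 in the 2VO rat, a log2 ratio to Sham of −7.13. Its coding sequence is the clearest case of a gene with many copies in the mouse annotation: 94.3% of its 31-base stretches also occurred in another gene, and 38 genes elsewhere held at least 50% of them. Rpl21, a protein of the large ribosomal subunit, was 8.31, 358 and 314 units, and 100% of its 31-base stretches occurred elsewhere. The window of each coding sequence that is held by the most other genes is shown because both genes are abundant in the rats, low in the mouse and held in many copies. Gapdh lies on mouse chromosome 6 and Rpl21 on chromosome 5, and the sequences were read from GENCODE M21 transcripts (GRCm38), 5′ to 3′ on the coding strand.
Mouse Gapdh, coding bases 485 to 544: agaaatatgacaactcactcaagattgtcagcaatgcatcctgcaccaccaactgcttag
Mouse Rpl21, coding bases 96 to 155: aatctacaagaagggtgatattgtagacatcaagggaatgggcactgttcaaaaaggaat
The Gapdh window was present letter for letter in 69 other mouse genes and the Rpl21 window in 38. Of the 69 genes, 1 was listed in the mouse table, at 0, and none of the 38 was. The part of these copies in the mouse values was not tested.

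Sharing of sequence was more common at the extremes than over all genes. Of the 45 genes at least 8-fold lower in the mouse, 12 (26.7%) held at least 10% of their coding 31-base stretches in a gene elsewhere, and of the 22 at least 8-fold higher 7 did (31.8%), against 10.8% of all compared genes. Over the whole table the same property made little difference to the 2-fold counts. Genes with no shared stretch were at least 2-fold apart in 18.3% of cases and genes with over 50% shared in 19.1%, with medians of −0.11 and −0.31. Pairs of names for overlapping transcripts also split differently between the tables. Snurf and Snrpn, which are made from 1 imprinted transcript, were 26.6 and 83.2 units in the mouse but 371 and 5.23 in Sham. Summed, they were 110 in the mouse, 376 in the Sham rat and 400 in the 2VO rat. Gdf1, a growth factor gene whose transcript also carries the ceramide synthase gene Cers1, was 1.11 in the mouse, 31.3 in the Sham rat and 28.3 in the 2VO rat, while the sum of both names was 32.3, 45.8 and 41.4.

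Other genes at the extremes shared none of their coding stretches with a gene elsewhere. Bcat1, the cytosolic branched-chain aminotransferase, was 11.7 units in the mouse, 331 in the Sham rat and 373 in the 2VO rat. An overlapping gene did hold 13.4% of its stretches. Nts, the neurotensin precursor, was 2.59, 53.9 and 50.7. Klk6, a secreted protease of oligodendrocytes, was 0.476, 19.1 and 24.7. Epha8, an ephrin receptor, was 0.821, 30.3 and 24.4. In these 4 genes both rats lay far above the mouse. In the other direction Ak5, a neuronal adenylate kinase, was 91.8 units in the mouse, 0.270 in the Sham rat and 0.146 in the 2VO rat, the highest log2 ratio of the named genes at 6.19. Ndufs6, a subunit of respiratory complex I, was 36.8, 0.289 and 0.169, and Rab5a, a small GTPase of early endosomes, was 40.7, 0.525 and 0.746. These 2 did share sequence, with 37.1% and 21.8% of their stretches found elsewhere. A near-absent value for such widely used genes in both rats is stated here as listed, since the sources used here do not give the annotation behind the rat values. Spink8, a protease inhibitor gene, was 18.8 units in the mouse and 0.0696 and 0.0741 in the rats. Cuedc2, a ubiquitin-binding adaptor, was 44.1, 3.81 and 2.66.

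Genes listed at 0 on 1 side have no fold between the values as listed, but with 1 unit added they are included in the fold counts. In the mouse 18 compared genes were listed at 0, in Sham 9 and in 2VO 10. Plpp6, a lipid phosphatase, was listed at 0 in the mouse and was 24.8 units in Sham and 21.4 in 2VO. Arg1, the arginase of the urea cycle, was listed at 0 in the mouse, with 8.67 and 5.80 in the rats. Ier3ip1, a small endoplasmic reticulum protein, was 20.6 in the mouse, listed at 0 in the Sham rat and 0.0509 in the 2VO rat. Overlapping genes held 14.7% of the coding 31-base stretches of Plpp6 and 33.7% of those of Ier3ip1. Siglech, a lectin of mouse microglia, was 4.84 in the mouse and listed at 0 in both rats. Mrps28, a mitochondrial ribosomal protein, was 5.02 in the mouse and listed at 0 in Sham, but 4.17 in 2VO, so the 0 did not recur in the second rat.

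Principal neuron genes were balanced around the median of all genes. Of 25 listed pyramidal and CA genes 22 passed the minimum, with 3 at least 2-fold higher in the mouse (13.6%), 4 lower (18.2%) and a median log2 ratio of −0.11, which turned above 0 under scaling. Wfs1, an endoplasmic reticulum protein that marks CA1, was 23.4 units in the mouse, 169 in the Sham rat and 111 in the 2VO rat. Necab2, a calcium-binding protein of CA2, was 36.2, 93.8 and 85.1. Amigo2, an adhesion molecule of CA2 and CA3, went the other way at 11.5, 3.60 and 4.52. Etv1, an ETS-family transcription factor, was 22.5, 8.04 and 14.5. Of 23 dentate granule cell and neurogenesis genes 18 passed, 4 higher (22.2%) and 4 lower (22.2%), with a median of 0.10 that was −0.04 against 2VO and −0.39 over members with a mean of 5 units. Among these, C1ql2, a synapse organiser of mossy fibres, was 36.0, 96.6 and 95.8, and Lct, the lactase gene, was 7.03 in the mouse and 0.0104 and 0.0128 in the rats. Tdo2, an enzyme of tryptophan breakdown, was 2.87 in the mouse, 0.0118 in the Sham rat and listed at 0 in the 2VO rat. Dcx, a marker of young neurons, was 2.30, 1.99 and 2.66. Shares past 2-fold in either list were above 6.54% and 11.3%, but each rests on 3 or 4 genes in either direction.

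Interneuron genes stood mostly on the mouse side. All but 1 of 27 listed genes passed; 7 of the 26 were at least 2-fold higher in the mouse (26.9%, against 6.54% of all genes), 0 were lower, and 23 lay above the median of all genes. The list median was 0.52 against Sham and 0.43 against 2VO. Somatostatin (Sst), the peptide of dendrite-targeting interneurons, was 204 units in the mouse, 96.6 in the Sham rat and 86.7 in the 2VO rat. Gad1, which makes GABA, was 96.3, 39.2 and 49.1. The second GABA-making enzyme gene, Gad2, was 26.6, 26.2 and 31.2, so the 2 enzymes did not stand alike. Calb2, the calcium-binding protein calretinin, was 22.2, 3.44 and 6.29. It also marks mossy cells and young granule cells in the mouse dentate gyrus, and it stands in both lists here. Npy, neuropeptide Y, was 41.9, 19.9 and 14.5. Nos1, neuronal nitric oxide synthase, was 11.6, 3.83 and 4.35. Erbb4, the neuregulin receptor of interneurons, was 6.72, 1.96 and 2.77, and Htr3a, an ion-channel serotonin receptor, was 5.81, 1.62 and 1.90. Pvalb, the parvalbumin of fast-spiking cells, was lower in the mouse at 20.3, 37.6 and 37.0. Slc32a1, the vesicular GABA transporter, was 19.96, 27.3 and 29.1. The median stayed between 0.40 and 0.79 under every setting tried. In whole tissue, fewer cells of a type and less RNA per cell cannot be told apart.

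Ionotropic glutamate receptor genes lay near the median of all genes, with a few exceptions, while the median of the metabotropic receptors stood above it. Of 18 ionotropic subunits 17 passed, 1 higher (5.88%) and 1 lower (5.88%), with a median of −0.06 that turned above 0 under scaling. The AMPA receptor subunit Gria1 was 186 units in the mouse, 165 in the Sham rat and 152 in the 2VO rat, and Gria2 was 106, 110 and 95. The obligatory NMDA subunit Grin1 was 121, 159 and 164. Grin2c, an NMDA subunit, was 7.53, 36.0 and 30.4, and Grin3a, another, was 5.86, 1.26 and 1.56. All 7 metabotropic receptors passed, 0 higher and 1 lower (14.3%), with a median of 0.35 (0.23 to 0.59 over the settings). Of the 7, 5 lay above 0, and the same 5 above the median of all genes. Grm5, which couples to phospholipase C, was 33.8, 18.3 and 20.9, and Grm4, a presynaptic receptor, was 1.98, 5.54 and 2.68. For GABA receptors 14 of 17 genes passed, 2 higher (14.3%) and 2 lower (14.3%), with a median of −0.00 that turned above 0 under scaling. Gabra3 was 17.8, 5.71 and 8.54 and Gabrg1 was 4.86, 17.3 and 19.4, so subunits lay on both sides.

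Postsynaptic scaffolds had the smallest share of genes past 2-fold among the neuronal lists. All 29 scaffold and kinase genes passed, 0 were 2-fold higher, 1 was lower (3.45%), and the median was −0.19, turning above 0 under scaling. The exception was Camk2n1, an inhibitor of CaM kinase II, at 134 units in the mouse, 379 in the Sham rat and 369 in the 2VO rat. The kinase itself, Camk2a, was 699, 780 and 717. Dlg4, the scaffold PSD-95, was 181, 139 and 144. Synaptic vesicle genes had 37 of 38 members measured, 1 higher (2.70%) and 2 lower (5.41%), with a median of 0.09 against Sham and −0.14 against 2VO, so its sign turned with the rat library. Rab3c, a vesicle GTPase, was 58.1 in the mouse, 10.2 in the Sham rat and 18.8 in the 2VO rat, while its relative Rab3a was 278, 232 and 299. Napa, which recycles SNARE proteins, was 75.7, 203 and 194. Snap25, a SNARE protein itself, was 678, 454 and 614.

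Channel genes held a few wide gaps in each class. Of 52 potassium channel genes 50 passed, with 6 at least 2-fold higher in the mouse (12%, against 6.54% of all genes), 1 lower (2.00%, against 11.3%) and a median of −0.05 that turned under scaling. Kcnk9, a background (leak) channel, was 19.3 units in the mouse, 2.26 in the Sham rat and 5.17 in the 2VO rat. Kcnf1, a modulatory subunit, was 14.4, 2.23 and 4.70. Kcnma1, the large-conductance calcium-activated channel, was 25.4, 9.70 and 12.1. Of 30 sodium, calcium and HCN channel genes 29 passed, 0 higher and 4 lower (13.8%, near the 11.3% of all genes), with a median of −0.36 that ranged from −0.38 to −0.12 over the settings. No difference between the classes was tested. Scn3b, an auxiliary sodium channel subunit, was 63.6, 181 and 170, and the pore gene Scn2a was 35.7, 31.9 and 33.9. Cacng8, an auxiliary subunit of AMPA receptors, was 62.4, 160 and 156.

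Receptors for monoamines and acetylcholine, and neuropeptides, held several of the wide gaps. Of 38 receptor genes 28 passed, 6 higher (21.4%) and 2 lower (7.14%), with a median of 0.00. The median was −0.20 against 2VO and −0.39 over members with a mean of 5 units, so the even median rests on low genes. Drd5, a dopamine receptor, was 4.15 units in the mouse, 0.604 in the Sham rat and 0.873 in the 2VO rat. Htr2c, a serotonin receptor also abundant in choroid plexus, was 9.68, 3.07 and 6.89. Htr5b, another serotonin receptor, was 2.76, 9.47 and 8.46. Chrm1, the main muscarinic receptor of pyramidal cells, was 35.8, 51.1 and 58.5. Of 25 neuropeptide genes 20 passed, 3 higher (15%) and 5 lower (25%), with a median of −0.18 that turned under scaling. Pdyn, the dynorphin precursor, was 4.57, 21.8 and 29.7, and Grp, gastrin-releasing peptide, was 16.2, 4.16 and 8.60. Cartpt was 1.06 in the mouse, 4.03 in the Sham rat and 0.375 in the 2VO rat, so the rats themselves lay on both sides of the mouse.

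Immediate early genes, which follow recent neuronal activity, did not stand on 1 side. Of 30 genes 27 passed, 2 higher (7.41%) and 5 lower (18.5%), with a median of 0.03 that ranged from −0.00 to 0.36 over the settings. Fos was 5.18 units in the mouse, 4.03 in the Sham rat and 6.86 in the 2VO rat, and Arc was 28.6, 27.9 and 31.3. Npas4, an activity-induced transcription factor, was 6.12, 0.502 and 3.11, with Sham below both others. Ier5 was 8.79, 28.7 and 24.7. Of 16 neurotrophin and receptor genes 13 passed, with a median of −0.07 that turned under scaling. Bdnf was 9.37, 9.87 and 7.59, and its receptor Ntrk2 was 70.1, 70.8 and 75.6.

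Myelin genes held the widest gap of any cell type list with more than 3 measured genes. Of 25 listed genes 23 passed, and 15 were at least 2-fold lower in the mouse (65.2%, against 11.3% of all genes), while 1 was higher (4.35%). The median log2 ratio was −1.28 against Sham and −1.61 against 2VO. Mbp was 682 units in the mouse, 2051 in the Sham rat and 2467 in the 2VO rat. Mog, a glycoprotein of the outer myelin surface, was 20.4, 55.0 and 62.6, and Mag, of the inner surface, was 41.3, 102 and 128. These 3 genes put the mouse below both rats. Cnp, an enzyme of non-compact myelin, was 74.2, 198 and 242. Opalin, a membrane protein of mature oligodendrocytes, was 4.00, 59.9 and 67.3, the lowest ratio of the list at −3.61. The exception was Gjc3, a gap junction protein of glia, at 12.5, 4.80 and 6.40. Plekhb1 was 113, 105 and 133 and Cryab, a small heat shock protein, 37.5, 31.7 and 36.2, both close to even. The other 2 listed genes, Ugt8 and Trf, had no partner of the same name. Ugt8, which makes a myelin galactolipid, is named Ugt8a in the mouse table, and by that link it was 7.43, 20.8 and 28.4.

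The gap was smaller in genes of the whole lineage and its precursors. Of 20 lineage and precursor genes 19 passed, 0 higher and 4 lower (21.1%), with a median of −0.44. Sox10, a transcription factor of the whole lineage, was 9.33 units in the mouse, 20.8 in the Sham rat and 30.5 in the 2VO rat. Olig2, which specifies the lineage, was 7.97, 14.4 and 13.3. The precursor markers Pdgfra, at 9.21, 8.04 and 8.99, and Cspg4, at 2.98, 3.15 and 3.07, were nearly even. Other members of the list were at least 2-fold lower in the mouse than in both rats. Among these, Mmp15 was 2.82, 12.8 and 12.7, Cacng4 was 4.92, 13.4 and 16.1, and C1ql1 was 4.15, 10.01 and 10.1. Against Sham, 12 of the 19 measured genes lay below 0 and 7 above, while 42.8% of all genes lay above 0. Set against the median of all genes, 11 lay below and 8 above. The myelin median was −1.08 after centring on coding GC content and ranged from −1.61 to −1.04 over all settings. That of the lineage list ranged from −0.78 to −0.17. Age and species cannot be told apart here, since the mouse was 6 months old and the rats 3 to 4.

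**Figure D3:**
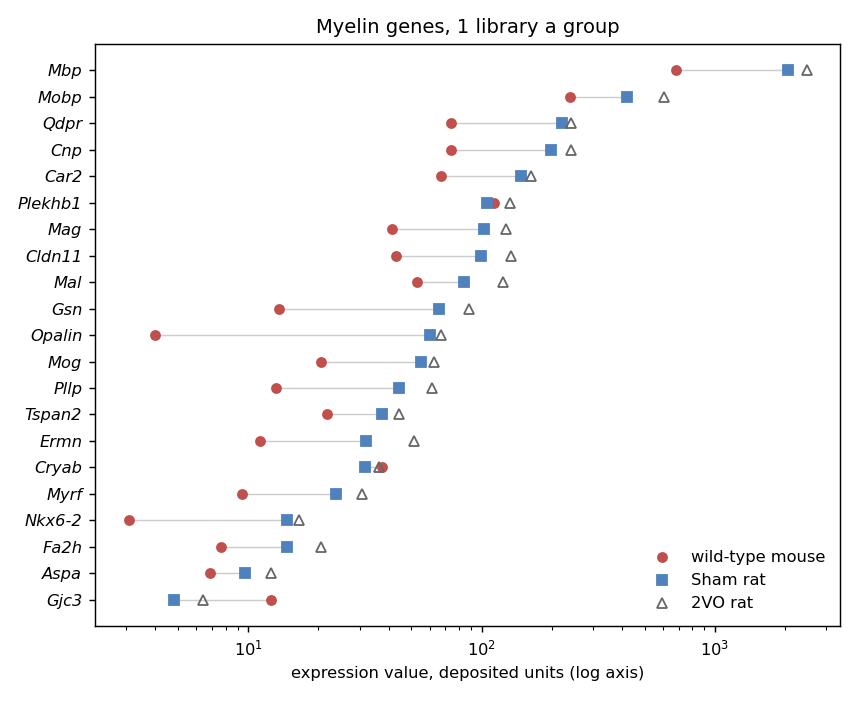
Deposited value of 21 of the 23 measured myelin genes on a log axis, with a circle for the mouse, a square for Sham and a triangle for 2VO. In 18 of the 21 genes the mouse lies below the Sham rat, and Plekhb1, Cryab and Gjc3 are the exceptions.

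Astrocyte genes had a few very wide gaps within an otherwise modest shift. All 28 homeostatic astrocyte genes passed, with 2 higher (7.14%), 6 lower (21.4%) and a median of −0.26 that ranged from −0.36 to −0.01 over the settings. S100b, a calcium-binding protein of astrocytes, was 40.3 units in the mouse, 486.5 in the Sham rat and 556 in the 2VO rat. Aqp4, the water channel of astrocyte endfeet, was 19.1, 87.2 and 83.7. Apoe, the lipid carrier, was 826, 2255 and 1864. The glutamate transporters stood apart from these: Slc1a2 was 246, 188 and 186.7 and Slc1a3 was 127, 145 and 147. Glul, glutamine synthetase, was 491, 399 and 377. Gjb6, a gap junction protein, was 26.4, 10.2 and 9.57, and Aldh1l1, a folate enzyme used as a pan-astrocyte marker, was 13.7, 6.82 and 6.10. No single direction therefore held over the defining genes of the cell type.

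More genes of reactive astrocytes were at least 2-fold lower than higher in the mouse. Of 26 listed genes 18 passed, 8 lower (44.4%) and 3 higher (16.7%), with a median of −0.78 against Sham and −0.50 against 2VO. Gfap was 110 units in the mouse, 778 in the Sham rat and 360 in the 2VO rat, so Sham was also more than 2-fold above the other rat. Lcn2, lipocalin 2, was 0.0227, 4.28 and 0.372, and the heat shock gene Hspb1 was 0.950, 7.78 and 1.75; in both the 2VO rat lay nearer to the mouse. Vim, vimentin, was 12.3, 19.7 and 21.8. The 3 higher genes were Serpina3n, a protease inhibitor, with 20.2 units in the mouse, C4b, a complement protein, at 13, 1.59 and 1.03, and Amigo2. Only 6 of the 18 reached a mean of 5 units, and over those 6 the median was 0.40, so the direction of the list rests on low genes.

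Immune genes were mixed or lower in the mouse. Of 30 microglial genes 27 passed, 4 higher (14.8%) and 4 lower (14.8%), with a median of −0.29 that ranged from −0.55 to −0.09 over the settings. Ctss, a lysosomal protease, was 33.4 units in the mouse, 112 in the Sham rat and 102 in the 2VO rat, and Aif1, the marker Iba1, was 2.47, 23.8 and 13.5. Csf1r, the receptor microglia need to survive, was 18.7, 29.1 and 23.6, whereas P2ry12, a purine receptor of resting microglia, was 9.19, 5.49 and 8.83. Trem2, a lipid receptor, was 5.90, 7.21 and 7.19. Olfml3 was higher in the mouse at 6.38, 0.963 and 1.03. Of 22 complement and MHC genes 17 passed, 5 lower (29.4%) and 2 higher (11.8%), with a median of −0.87 against Sham and −0.63 against 2VO. It shrank to −0.40 over members with at least 1 unit in both libraries. C3, the central complement component, was 0.282, 9.55 and 6.13, and Cd74, the chaperone of MHC class II, was 0.547, 7.35 and 3.86. B2m, the light chain of MHC class I, was 49.8, 93.5 and 87.0. MHC molecules named differently by species, such as H2-M3 in the mouse and RT1-M3-1 in the rat, did not meet in the join by symbol. Of 30 interferon-stimulated genes 21 passed, 0 higher and 5 lower (23.8%), with a median of −0.66 against Sham and −0.44 against 2VO, and from −0.88 to −0.29 over the settings. Irf9, a mediator of interferon signalling, was 3.26, 11.4 and 8.61. Ifit3, 1 of the 4 genes with a ratio above 0, was 3.51, 2.04 and 0.460. Only 4 of the 21 interferon-stimulated genes reached a mean of 5 units, so most of these values are low.

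Vascular and border cell genes were mixed in direction. Of 28 endothelial genes 22 passed, with a median of −0.12 that turned under scaling. Cldn5, the tight junction protein of brain vessels, was 5.97 units in the mouse, 23.4 in the Sham rat and 22.5 in the 2VO rat, and Abcg2, an efflux pump, was 5.87, 0.536 and 0.648. Pecam1, a general endothelial marker, was 2.28, 2.69 and 2.69. Of 18 mural cell genes 11 passed, 1 higher (9.09%) and 2 lower (18.2%), with a median of −0.06 that turned under scaling. The highest ratio was that of Vtn, vitronectin of pericytes, at 18.3, 4.12 and 5.36. Tagln had the lowest, at 0.169, 5.13 and 7.99. Of 20 meningeal fibroblast genes 9 passed, 4 of them higher (44.4%), with a median of 0.71 that ranged from 0.15 to 0.95 over the settings. Their summed values were 60.8 in the mouse, 30.6 in the Sham rat and 35.1 in the 2VO rat. Dcn, decorin, was 21.6, 4.23 and 6.51, while the collagen gene Col1a1 was 0.474, 0.577 and 0.583. Of 18 choroid plexus genes 5 passed. Ttr, transthyretin, was 15.4, 0.434 and 4.75, and Kl, klotho, was 4.78, 0.0496 and 0.0369. Kcnj13, a channel of the choroid epithelium, was 0.121, 0.122 and 0.113, so that defining marker was even and near 0. Of 20 ependymal genes 11 passed, with a median of −0.28, and Foxj1, the ciliary transcription factor, was 1.80, 2.16 and 2.92. Only 3 of 21 blood cell genes passed, and they did not share a direction. Hba-a1, an alpha-globin gene, was 58.1 in the mouse, 6.25 in the Sham rat and 6.42 in the 2VO rat. Cd4, of helper T cells and some myeloid cells, was 0.0440, 3.83 and 1.25. Cd3e, of T cells, was 0.0160 in the mouse, 7.15 in the Sham rat and 1.20 in the 2VO rat, while Cd3g was 0.0547, listed at 0 and 0.119. The part of border and blood cells in the other gaps was not tested.

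**Figure D4:**
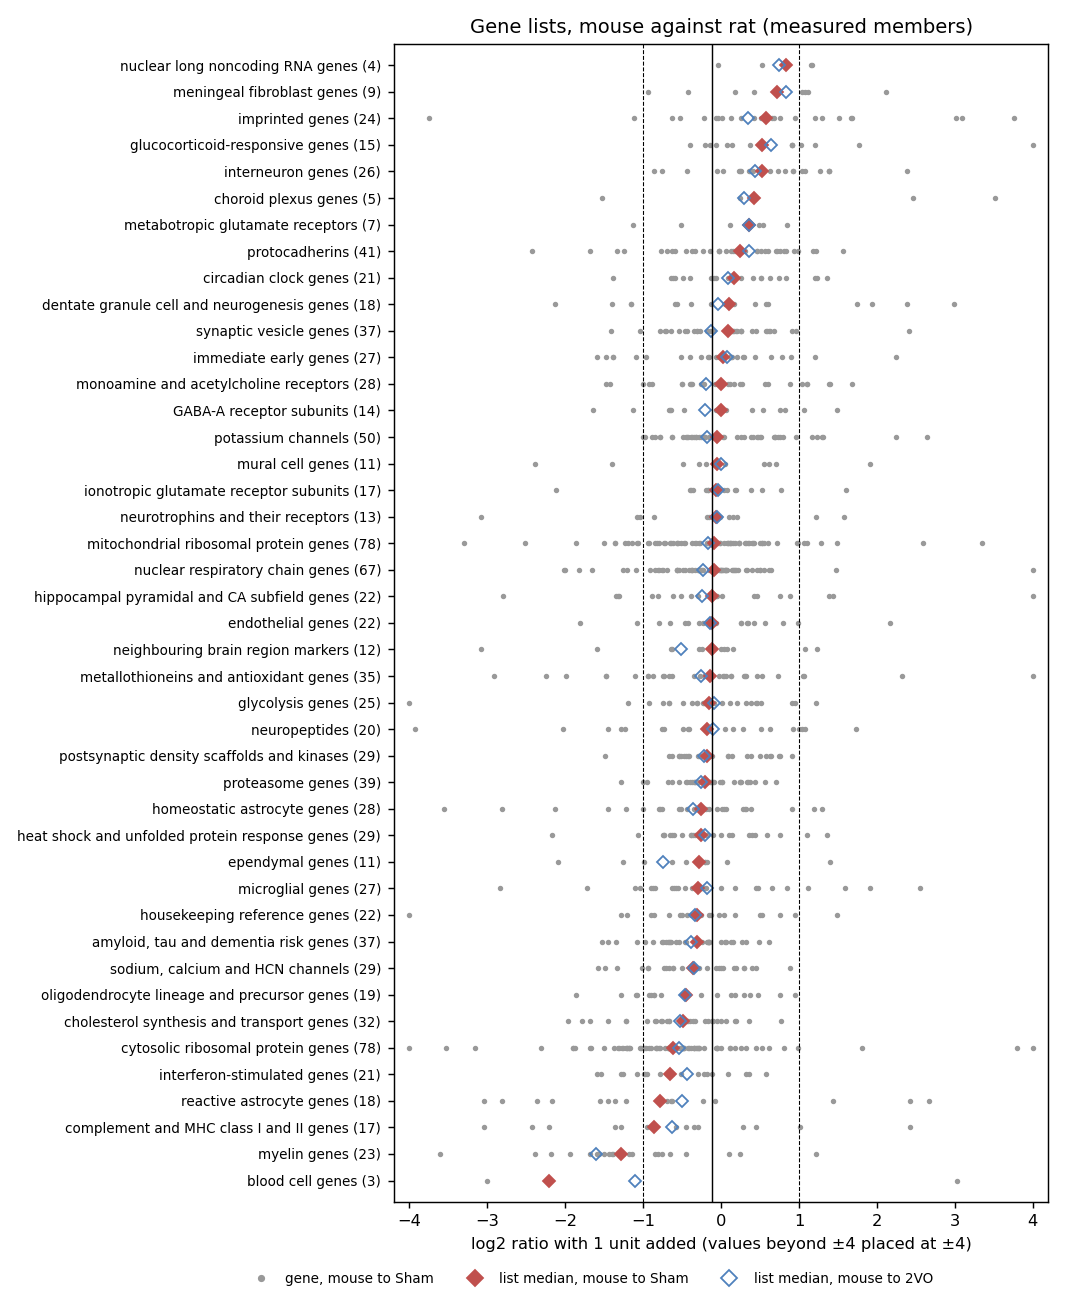
Log2 ratios of mouse to Sham with 1 unit added for the measured members of each gene list (grey), with the list median against Sham (filled diamond) and against 2VO (open diamond); numbers in brackets are measured members, the solid line is the median of all genes, −0.12, and dashed lines mark 2-fold. Among lists with more than 3 measured members, myelin genes have the lowest median, −1.28, and nuclear long noncoding RNAs the highest, 0.83, from 4 genes.

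Cytosolic ribosomal protein genes were lower in the mouse as a group. Of 79 genes 78 passed, 23 lower (29.5%) and 3 higher (3.85%). Of the 78, 64 lay below 0 and 60 below the median of all genes. The list median was −0.62 and stayed between −0.66 and −0.37 in every setting. Rps20, of the small subunit, was 15.6 units in the mouse, 191 in the Sham rat and 156 in the 2VO rat. Rplp0, of the ribosomal stalk, was 105, 245 and 241. Rpl8 and Rpl35a, both of the large subunit, went far the other way, at 156, 10.3 and 9.51 and at 85.7, 1.20 and 1.48. Of the 31-base stretches of Rpl35a 89.7% occurred elsewhere in the mouse annotation, and of Rpl8 11.1%. Genes of this family have many processed copies in both genomes, so single values are uncertain. The mitochondrial ribosomal proteins, 78 of 80 measured, had 6 higher (7.69%), 11 lower (14.1%) and a median of −0.09 that turned under scaling.

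Energy metabolism genes lay close to the median of all genes. Of 81 nuclear respiratory chain genes 67 passed, 2 higher (2.99%) and 7 lower (10.4%), with a median of −0.09. Cox4i1, of complex IV, was 327 units in the mouse, 393 in the Sham rat and 382 in the 2VO rat, and Atp5b, of ATP synthase, was 459, 466 and 493. Of 28 glycolysis genes 25 passed, 1 higher (4.00%) and 2 lower (8%), with a median of −0.16. The 2 lower genes were Gapdh and Pfkfb3, which makes an activator of glycolysis, at 7.02, 17.4 and 17.6. Several other enzymes were close: Pgk1 was 163, 182 and 218, Eno1 322, 296 and 321, and Pkm 474, 378 and 470. Tpi1, the isomerase that acts before Gapdh, was 269, 139 and 170, a log2 ratio of 0.94. Both medians turned above 0 under scaling. Of 24 genes often used as references 22 passed, 1 higher (4.55%) and 3 lower (13.6%), with a median of −0.31. That median turned to 0.34 without the genes that share at least 10% of their coding stretches. Ppia was 490, 625 and 715. Tbp, the TATA-binding protein, was 8.75, 2.47 and 3.25, at the other end from Gapdh. Proteasome genes, 39 of 39 measured, had 2 lower (5.13%) and a median of −0.20 that turned under scaling. Psmb8, an immunoproteasome subunit, was the lowest at 1.27, 4.53 and 2.51.

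Cholesterol genes mostly lay below the median of all genes. All 32 cholesterol synthesis and transport genes passed, with 0 higher, 6 lower (18.8%) and a median of −0.48. Cyp51, which demethylates lanosterol, was 11.9 units in the mouse, 43.5 in the Sham rat and 44.3 in the 2VO rat, and Lss, the enzyme before it, was 6.01, 21.5 and 15.7. Hmgcs1, an early enzyme of the pathway, was 58.3, 60.4 and 66.5, so it did not share the gap. The list median stayed between −0.53 and −0.25. Antioxidant genes, 35 of 38 measured, had 4 higher (11.4%), 6 lower (17.1%) and a median of −0.14 that turned under scaling. The metallothioneins split: Mt1 was 212, 9.70 and 11.3 and Mt3, the brain form, was 190, 533 and 378. Glutathione transferases split as well, with Gstm5 at 95.9, 18.3 and 22.5 and Gstm7 at 12.1, 97.7 and 98.7; members of that family are near copies of each other, so their values are uncertain.

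Genes of amyloid and tau biology were mostly a little lower in the mouse. Of 39 genes 37 passed, 0 higher and 4 lower (10.8%, close to the 11.3% of all genes), with a median of −0.31 that ranged from −0.39 to −0.06 over the settings. Mapt, the gene of tau, was 78.8 units in the mouse, 100 in the Sham rat and 116 in the 2VO rat. Bace1, the beta-secretase, was 8.14, 25.3 and 33.8. Aph1a, a subunit of gamma-secretase, was 11.1, 29.9 and 25.9. Sncg, gamma-synuclein, was 2.12, 3.26 and 24.4, with the 2VO rat far above both others. Heat shock and unfolded protein response genes, 29 of 30 measured, had 2 higher (6.90%) and 2 lower (6.90%). Hsp90aa1 was 289, 112 and 131, and Hspa5, the endoplasmic reticulum chaperone, was 67.5, 95.9 and 82.3.

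Genes that respond to glucocorticoids, the stress hormones, stood mostly on the mouse side. Of 18 such genes 15 passed, 4 higher (26.7%), namely Sgk1, Per1, Plin4 and Mt1, and 0 lower, with a median of 0.52 against Sham and 0.64 against 2VO. Sgk1, a kinase induced by corticosteroids, was 57.0 units in the mouse, 27.6 in the Sham rat and 21.5 in the 2VO rat. Plin4, a lipid droplet protein, was 5.33, 0.864 and 1.35, and Tsc22d3 was 35.6, 18.5 and 22.4. Fkbp5, a standard reporter of the receptor, was 19.8, 18.0 and 17.3, and the receptor Nr3c1 was 11.8, 15.8 and 14.7, so neither of those shared the gap. Per1, which is in the circadian, immediate early and glucocorticoid lists, was 17.1, 6.82 and 7.10. Of 22 clock genes 21 passed, 3 higher (14.3%) and 1 lower (4.76%), with a median of 0.17. Arntl was 7.22, 10.5 and 11.1, Nr1d1 25.6, 24.1 and 33.8, and Dbp 28.2, 43.2 and 38.0. The labels do not state the hour of tissue collection, and its part was not tested.

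Imprinted genes, which are expressed from 1 parental copy, included some of the widest gaps on the mouse side. Of 36 listed genes 24 passed, 8 higher (33.3%) and 2 lower (8.33%), with a median of 0.58 against Sham and 0.34 against 2VO. Over the 17 members with a mean of 5 units the median was 0.25. Snrpn is among the 8 higher genes and Snurf among the 2 lower, and their sum was lower in the mouse, as given above. Nnat, neuronatin, was 187 units in the mouse, 65.0 in the Sham rat and 141 in the 2VO rat, so the second rat lay nearer to the mouse. Nap1l5 was 119, 47.7 and 59.5. Plagl1, a zinc finger protein, was 7.96, 0.106 and 0.347, and Rtl1, a retrotransposon-derived gene, was 9.09, 0.186 and 0.241. Peg3 was 45.9, 38.4 and 48.6 and Cdkn1c 1.38, 1.38 and 1.29, both even. Only 4 of 16 long noncoding RNAs were measured in both tables. Snhg11 was 331, 148 and 147, Gas5 95.8, 42.7 and 37.5, and Miat 111, 114 and 109. Of 71 protocadherins 41 passed, 3 higher (7.32%) and 4 lower (9.76%). Their median was 0.24, and −0.03 over members with a mean of 5 units. Within the alpha cluster and within the gamma cluster, genes share their last exons. Pcdha4 was 2.59, 18.4 and 18.9 and Pcdhga9 5.04, 1.04 and 2.29, and reads from the shared exons make such values uncertain.

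The ratio of mouse to Sham varied with the base composition and length of the coding sequence. Over 5 equal groups of genes ordered by coding GC content, from the lowest to the highest, the median log2 ratio was 0.13, −0.04, −0.12, −0.25 and −0.35. In the lowest group 7.68% of genes were at least 2-fold higher in the mouse and 4.87% lower; in the highest group 4.52% were higher and 17.2% lower. Spearman's rho between GC content and the ratio was −0.22 over 11393 genes, which share these libraries, and it was −0.16 for the ratio of 2VO to Sham. Short genes lay apart more often: 25.3% of the group with the shortest coding sequences were at least 2-fold apart and 11.2% of the longest. The medians of those groups were −0.26 and −0.00. By level, 24.0% of the lowest group and 13.9% of the highest were at least 2-fold apart. After centring on GC content, 923 genes were higher and 951 lower. Interneuron genes then stood at 0.79, ribosomal protein genes at −0.45 and cholesterol genes at −0.30. Homeostatic astrocyte genes stood at −0.06 in place of −0.26 and lineage and precursor genes at −0.17 in place of −0.44. Immediate early genes moved to 0.36 from 0.03 and potassium channel genes to 0.23 from −0.05.

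**Figure D5:**
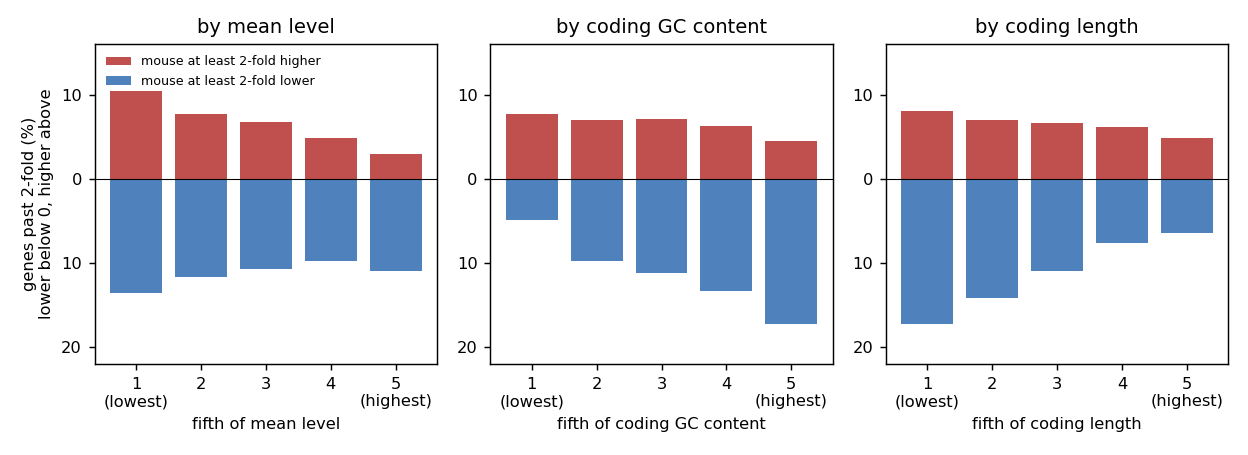
Percent of genes at least 2-fold higher (above 0) or lower (below 0) in the mouse than in Sham, in 5 equal groups of genes by mean level, coding GC content and coding length. The share of lower genes grows from 4.87% to 17.2% with GC content and shrinks toward long coding sequences.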

How the data were processed

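Hippocampal RNA of 1 mouse and 2 rat libraries was analysed, grouped by their titles. Per the file headers, each deposited table gives 1 column of an expression signal per gene symbol; its unit is not stated and 0 mitochondrially encoded names are listed, so the depth and the precision it would give are unknown. The submitters' processing notes name fastp 0.21.0, HISAT2 2.1.0, DESeq2, GRCm39 and mRatBN7.2, without roles; for the quantifier and annotation nothing is given in the sources used here.

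Symbols were joined ignoring case, and log2 ratios were taken with 1 unit added, without rescaling. At least 2-fold apart was the count rule, with no test because each group holds 1 library. Coding length, GC content and shared 31-base stretches (both strands) came from GENCODE M21 (GRCm38) for 11393 genes; this build differs from that of the values, so no coordinates are given. The genes compared and all 44 gene lists were chosen with earlier results of these data known, so no list is independent support. Named by rule were the 15 highest and 15 lowest ratios among genes above 0 in every library, without a model name, whose mean reached 5 units. From all compared genes came the 20 most abundant in each of mouse and Sham and the 3 highest and 3 lowest of each list. The 10 highest genes listed at 0 on the other side, and any member of a list under 20 genes, could be named too. Other genes named as examples were chosen after their values were seen, and some genes taken by the rule are not reported here.

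Alternatives were 0.25 or 4 units added, no minimum, a mean of 5 units or 1 unit in both libraries, 3 scalings, model names left out and 2VO as the rat. Centring on coding GC content (lowess, span 0.3), leaving out genes that share at least 10% of their stretches, autosomal coding genes alone and names coding in both annotations were chosen after seeing the data. Simulated tables with known ratios were used to test the calculation. Scripts ran in Python 3.11.15 (pandas 2.3.3, numpy 2.4.6) with scipy 1.17.1 for ranks, statsmodels 0.14.6 for lowess and matplotlib 3.10.9.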

Additional observations from a re-analysis of the deposited data

How the results depend on the processing

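With 4 units added, 288 genes were at least 2-fold higher in the mouse and 645 lower, in place of 748 and 1296. Raising the minimum to 5 units gave counts of 426 and 860 over 8209 genes, and scaling to equal sums gave 1136 higher. Spearman's rho was 0.926 without a minimum and 0.790 with the minimum of 5 units, and that last setting also turned the reactive astrocyte median to 0.40. Fewer genes enter the stricter minimum and low genes enter the open one; other causes were not tested. Of 43 list medians 28 kept their sign under the 3 scalings and GC centring, and 21 in all 14 settings. A list median counted as moved when it shifted by at least the SD of the log2 ratios between the rats, 0.22, whatever its sign, and rho by more than its gap between the 2 rat references. Of the list values 73 moved and 517 did not; the turned reactive astrocyte median stands apart from both, and a setting that left under 3 genes of a list gave no value. No paired analysis was possible because each group holds 1 library, and for the same reason no replicate could be left out. Unknown depth limits every low value, so no interval or detection limit is given.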

Other observations

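The join by symbol leaves out genes that the species' tables name differently. At 1 unit or more, 1629 mouse symbols and 2168 Sham symbols had no partner, and 768 and 1580 of these were model names. Synonyms in a RefSeq rat gene table (GRCr8) linked 391 such pairs with a mean of at least 1 unit; this step was chosen after the values were seen, and a synonym is not proof that 2 genes correspond. Of the 391 pairs 28 were at least 2-fold higher in the mouse (7.16%) and 51 lower (13%), beside 6.54% and 11.3% of the genes joined by symbol, and their median log2 ratio was −0.16.

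Several of these pairs belong to groups described above. Trf, transferrin, an iron carrier made by oligodendrocytes, was 85.1 units in the mouse, and the rat gene Tf was 316 in Sham and 377 in 2VO, the same side as most myelin genes. Meg3, an imprinted long noncoding RNA, was 418 in the mouse, and the rat name RGD1566401 was 370 and 372. Selenow, a selenoprotein, was 393 in the mouse and its rat name Sepw1 383 and 350. Pea15a, an astrocyte phosphoprotein, was 158, and rat Pea15 was 155 and 184. Atp5pb, of ATP synthase, was 140, and rat Atp5f1 was 60.7 and 70.3. Scd1, a fatty acid desaturase, was 29.9, and rat Scd was 6.33 and 6.39, which is opposite to the cholesterol genes. Most haemoglobin names did not meet, and those that did ran in opposite directions: Hba-a1 was 58.1, 6.25 and 6.42 and Hbb-b1 was 1.60, 10.6 and 10.6. Of the others, the mouse had Hbb-bs at 67.3, Hbb-bt at 40.2 and Hba-a2 at 42.9, and the rats had Hba1 at 168 and 153 and Hbb at 107 and 107.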
